A study of Mus musculus with 10 samples.

Results

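Interleukins and their receptors were described in WEHI 164 tumors that were sampled before treatment with a poly(I:C)-releasing hydrogel. The genes were taken by name, as every symbol of the table that starts with Il and a number, pseudogenes and Il2ra aside, which gave 82 of 35958 features. Of these, 41 are on the ligand side (cytokines, receptor antagonists and soluble binding proteins), 40 are receptors, decoys included, and 1, Il4i1, encodes an amino acid oxidase that is neither.

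WEHI-164 is a mouse fibrosarcoma line, and a single line stands for the tumor here. It was grown under the skin of wild-type female BALB/c mice. Untreated tumors were partly removed by surgery, the removed tissue was kept for poly(A) RNA sequencing, and the hydrogel was laid on the tumor that remained. The study named the mice afterwards, as responders when the tumor regressed completely (tumors 5, 9, 10, 11 and 12) and as non-responders when growth was not delayed (tumors 1, 2, 3, 6 and 7), so the comparison asks what differed before any treatment. The labels give no age for these mice, and the study's methods give a single age range in weeks for the mice of all its experiments. Responder libraries held 16002949 to 31160790 estimated counts (median 25627675), with responder 9 the shallowest and responder 11 the deepest, and non-responder libraries held 19863863 to 28276142 (median 22757833). All 8 mesenchymal markers set for a fibrosarcoma were detected, led by Vim at 4761 CPM (estimated counts relative to the library size, which was scaled by edgeR's trimmed mean of M values). Responder 5 stood apart from the other responders in lymphoid genes: 10 natural killer (NK) cell markers summed to 36.0 CPM in it and to 119 to 218 CPM in the other 4 responders, and interleukin genes whose unadjusted p fell under 0.05 without it are given with and without it.

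Interleukins are small secreted proteins by which leukocytes, stromal cells and some tumor cells signal to each other. Most bind receptors built of a ligand-specific chain and a shared chain, such as the common gamma chain (encoded by Il2rg) for interleukin-2, interleukin-7, interleukin-15 and related cytokines, or gp130 (Il6st) for interleukin-6 and interleukin-11. Receptors of these families signal through Janus kinases and STAT proteins, whereas the interleukin-1 and interleukin-17 receptor families signal to NF-kappaB through adaptor proteins. Decoy receptors, antagonists and binding proteins take up ligand or receptor without giving a signal.

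Of the 82 genes, 50 passed a filter of more than 0.366 CPM in at least 3 tumors, 18 on the ligand side, 31 receptors and Il4i1. Receptors were thus detected more completely than ligands, 31 of 40 against 18 of 41. The 32 that failed never exceeded 17 estimated counts in any tumor, and 9 were at 0 in all 10, which allows at most 0.0126 CPM over the libraries together (3 counts in all, counting error only). All 6 interleukin-17 ligands failed the filter (Il17a, Il17b, Il17c, Il17d, Il17f and Il25), although 4 of the 5 interleukin-17 receptor genes passed. Il2, the growth factor of T cells, gave 1, 1, 2, 7 and 0 counts in responders 5, 9, 10, 11 and 12 and 1, 1, 1, 3 and 1 counts in non-responders 1, 2, 3, 6 and 7, too few to compare. The T cell cytokines Il3, Il5, Il9, Il13 and Il21 and the interleukin-12 subunit Il12a also failed. The 9 receptors that failed were Il1rapl1, Il1rapl2, Il5ra, Il11ra2, Il23r, Il20ra, Il22ra1, Il22ra2 and Il17re. Il11ra2 is a near-identical copy of Il11ra1, so the split of reads between them is uncertain.

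Of the 50 genes past the filter, 45 were above it in all 10 tumors. Il23a, a subunit of interleukin-23, passed only through 3 non-responders, at 2 to 16 counts a tumor, so its lower mean in responders follows in part from the filter. Across tumors the coefficient of variation of the 50 ran from 4.23% for Il17ra, the shared chain of interleukin-17 receptors, to 52.5% for Il1b, with a median of 23.2%.

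Levels of different genes were compared per kilobase of exon, as CPM per kb over all 10 tumors (mean ± SD, n = 10). The exon length joins all annotated exons of a gene and can exceed the transcript measured, so the order of genes depends on it. The most abundant ligand was Il1b, the inflammatory cytokine interleukin-1β, at 19.9 ± 10.4, followed by Il34, a ligand of the colony stimulating factor 1 receptor, at 14.7 ± 1.57. Next came Il1rn, the secreted antagonist of the interleukin-1 receptor, at 10.3 ± 3.89, Il18bp, the soluble binding protein of interleukin-18, at 6.58 ± 1.92, and Il33, an alarmin of the interleukin-1 family, at 4.66 ± 2.25. In this order Il34 and Il1rn differed by more than either SD, and the other neighbours did not. Antagonists and binding proteins therefore took 2 of the 5 highest places on the ligand side.

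The receptors were led by Il18rap, the accessory chain of the interleukin-18 receptor, at 33.5 ± 3.74 CPM per kb and by Il13ra1, a chain that binds interleukin-13, at 30.8 ± 4.29. Il4ra, the chain that binds interleukin-4, followed at 25.4 ± 3.63, Il2rg at 25.3 ± 5.62 and Il1rl1, the receptor of interleukin-33, at 20.7 ± 4.85. Of these neighbours Il13ra1 and Il4ra alone differed by more than either SD. The 2 chains of the interleukin-18 receptor were far apart, since Il18r1, which binds the cytokine, was at 1.34 ± 0.475 against 33.5 ± 3.74 for Il18rap. The receptor with the lowest level past the filter was Il9r, at 0.0706 ± 0.0354.

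**Figure D1:**
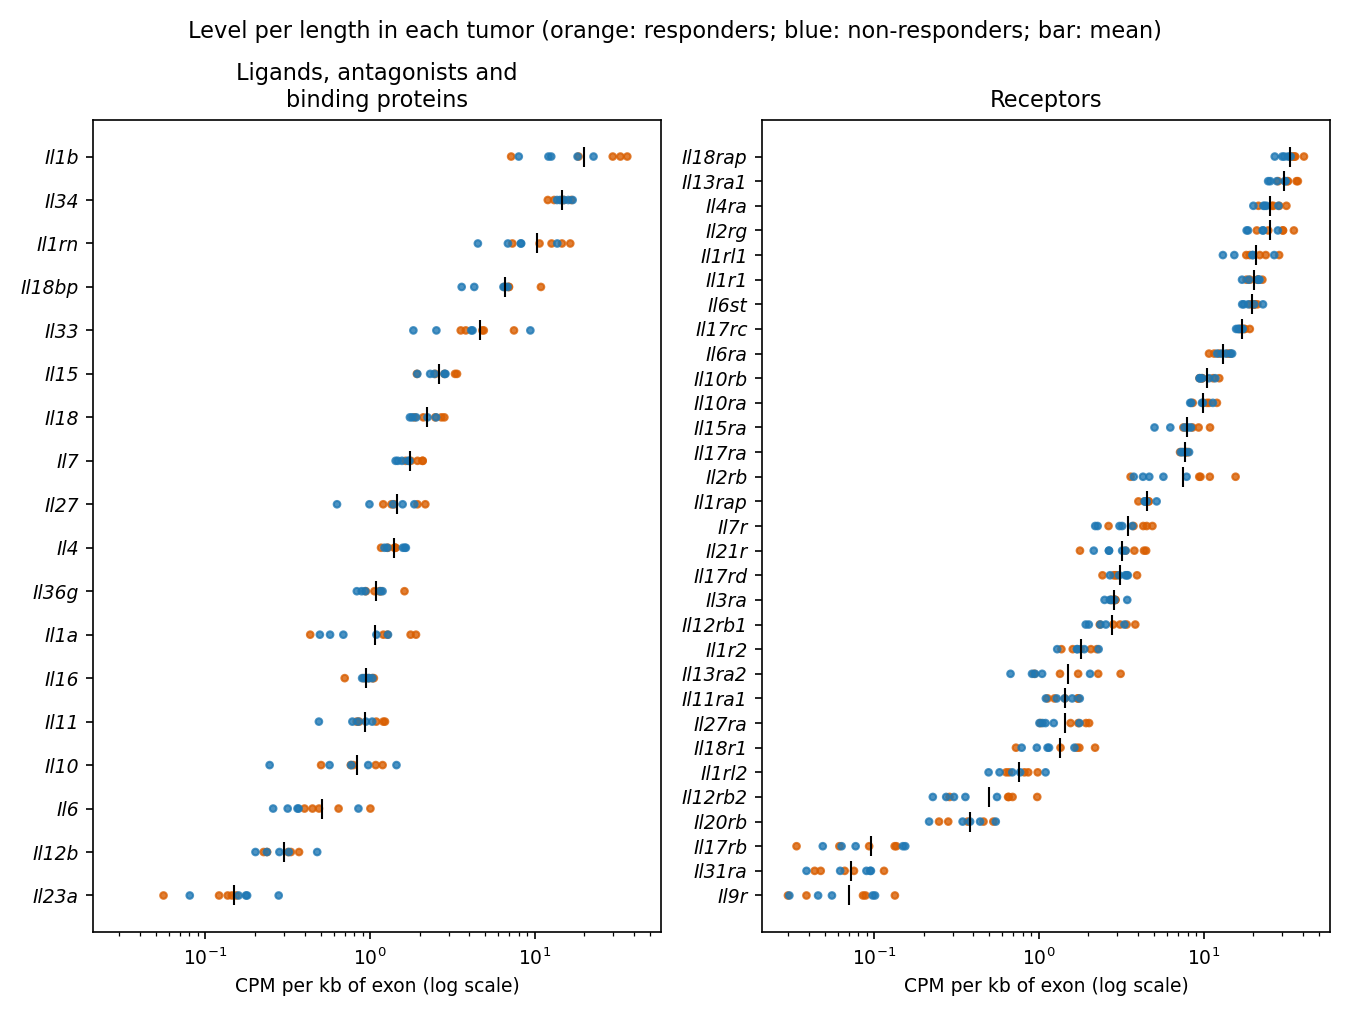
Level of each interleukin gene past the filter in each tumor, in CPM per kb of exon on a log axis, with ligand-side genes on the left and receptors on the right (orange points for responders, blue for non-responders, bar for the mean of 10 tumors). Il1b and Il18rap head the 2 panels, and the colors intermingle for most genes.

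Responders and non-responders were then compared over the whole table. No feature of 15767 tested passed an adjusted p of 0.05 (0.0%; quasi-likelihood test of edgeR, adjusted by Benjamini and Hochberg), and limma voom also gave 0. DESeq2 gave 1, the collagen gene Col6a2, lower in responders, which is no interleukin gene and was looked up after the count was seen. At an unadjusted p under 0.05 edgeR gave 1295 features (8.21%), 664 of them higher in responders (4.21%) and 631 lower (4.0%). The interleukin genes are therefore described by their values and unadjusted p, and none is called changed. In bulk tumors, fewer cells of a type and less RNA per cell cannot be told apart.

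Among the 50 interleukin genes past the filter, 12 (24.0%) had an unadjusted p under 0.05, all 12 with the higher mean in responders. The ligand side held 3 of 18 (16.7%), namely Il7, Il18bp and Il1rn, and the receptors held 9 of 31 (29.0%), namely Il18rap, Il12rb2, Il2rb, Il13ra1, Il7r, Il2rg, Il15ra, Il12rb1 and Il13ra2. Their adjusted p by edgeR with Benjamini-Hochberg adjustment ran from 0.580 to 0.604. The mean was higher in responders for 37 of the 50 and lower for 13, and the median log2 fold change (responders over non-responders) was 0.17, beside 0.00 for all features, of which 48.6% had the higher mean in responders. In none of the 50 were the groups of tumors fully separate, against 0.926% of all features.

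These counts depended on single tumors. Without responder 5 they were 5 ligands and 14 receptors, all higher in responders except Il17rd, beside 13.6% of all features, and without responder 11 they were 1 ligand and 5 receptors beside 5.34%. Without non-responder 1 there were 14 receptors beside 9.78% of all features, without non-responder 2 there were 5 beside 7.28%, and without non-responder 7 there were 1 ligand and 5 receptors beside 5.94%. No interleukin gene reached an adjusted p of 0.05 in any of these fits or in the other normalizations, filters and tools, and Il2rb came closest (0.0691 by edgeR without responder 5). Without responder 5 edgeR called 9 features, none of them an interleukin gene. Of the 37 genes with the higher mean in responders, 29 kept that direction with each tumor left out, and of the 13 with the lower mean, 5 did, 7 changed direction and Il23a failed the filter when any of 3 non-responders was left out.

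**Figure D2:**
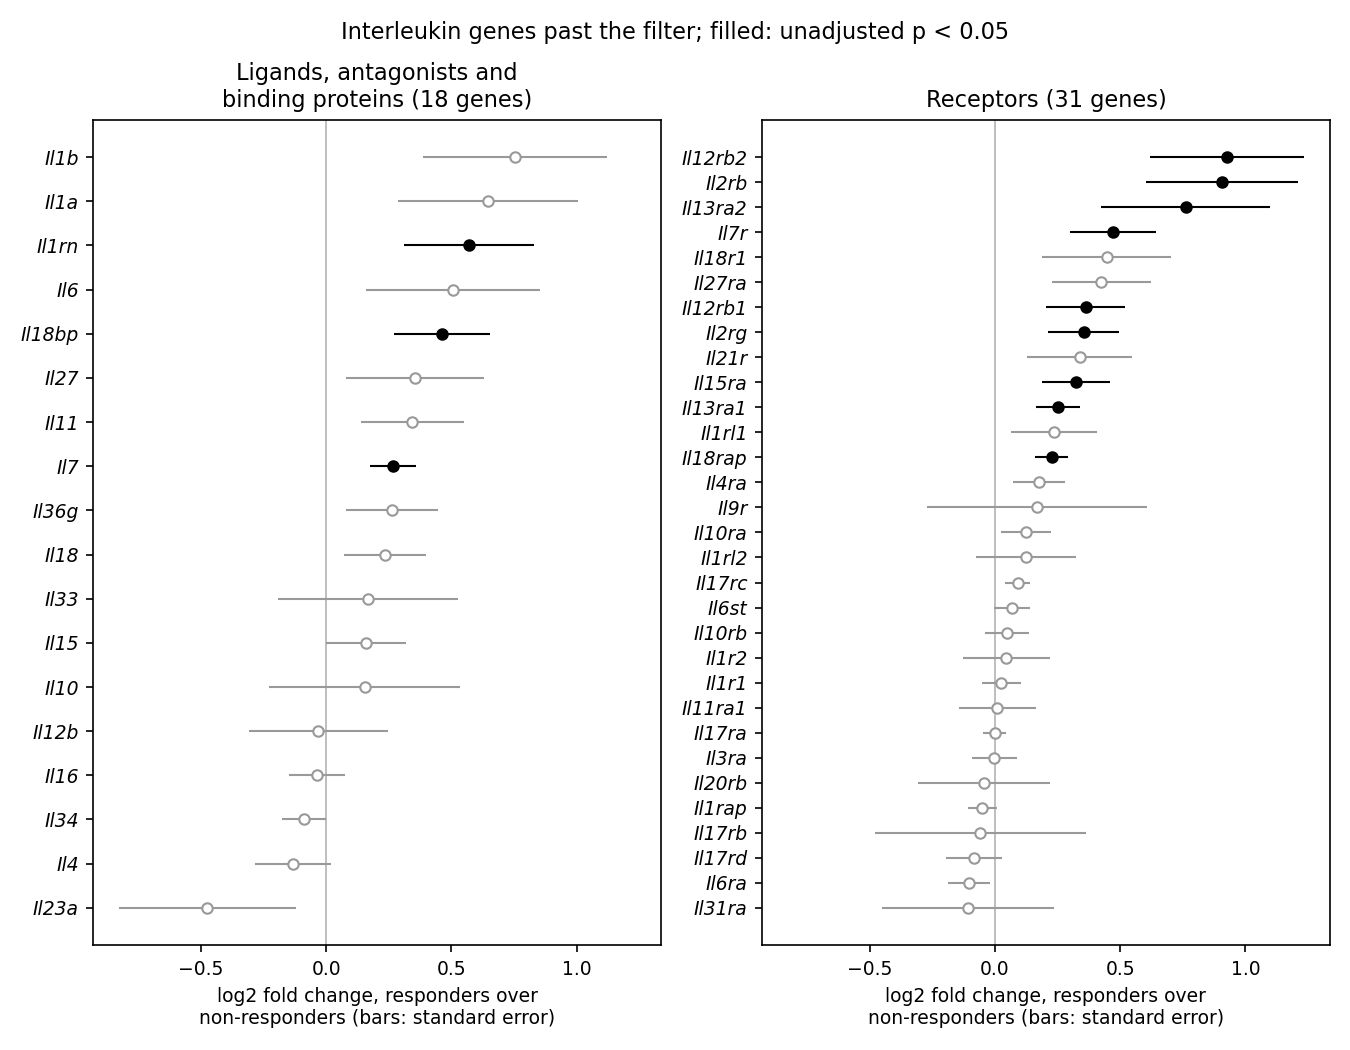
Log2 fold change of responders over non-responders for the 18 ligand-side genes (left) and 31 receptors (right) past the filter, with bars for the standard error and filled points for an unadjusted p under 0.05. The 12 filled points, 3 and 9, all lie above 0.

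On the ligand side the largest fold changes with all tumors, those of Il1b, Il1a and Il1rn, belonged to the interleukin-1 family. Without non-responder 3 that of Il6, from another family, was larger (log2 0.88, against 0.84 for Il1b). Il6 was also ahead of Il1rn without responder 10 (0.59 against 0.56), and Il27 was ahead of Il1rn without non-responder 6 (0.53 against 0.51). All 7 ligand-side genes of the interleukin-1 family past the filter (of 11) had the higher mean in responders. Their median log2 fold change was 0.46, and 2 (28.6%) had an unadjusted p under 0.05, beside 8.21% of all features in either direction. Means are given with the SD over the 5 tumors of each group, responders before non-responders. For each gene below, values are listed in the order of responders 5, 9, 10, 11 and 12 and then of non-responders 1, 2, 3, 6 and 7. Il1b (chr2:129364570-129371139, build GRCm38) was at 13.7, 69.6, 63.2, 56.8 and 35.2 CPM in responders and at 24.0, 43.4, 34.7, 23.1 and 15.3 CPM in non-responders. Responder 5 had the lowest level of all tumors and 3 other responders the 3 highest. The means were 47.7 ± 23.0 and 28.1 ± 11.0025 CPM, and the log2 fold change was 0.75 (SE 0.37; edgeR adjusted p = 0.620). Without responder 5, the lowest tumor, it was 0.995, with an unadjusted p under 0.05. Without responder 9 it was 0.59, and the unadjusted p was over 0.05 when any of 8 tumors was left out.

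Il1a, the other interleukin-1 agonist, was at 0.854, 3.75, 2.51, 3.48 and 2.38 CPM in responders and at 2.16, 2.54, 1.36, 1.13 and 0.978 CPM in non-responders. Again responder 5 was the lowest tumor, while responders 9 and 11 lay above every non-responder. Its log2 fold change was 0.65 (SE 0.36; edgeR adjusted p = 0.663), and 0.88 without responder 5, with an unadjusted p under 0.05. Without responder 9 it was 0.50, and the unadjusted p was over 0.05 when any of 8 tumors was left out.

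The antagonist Il1rn (chr2:24336853-24351494) was at 40.5, 81.0, 70.0, 91.0 and 59.2 CPM in responders and at 75.8, 45.8, 45.5, 38.0 and 24.99 CPM in non-responders. Responder 5 lay among the low non-responders and non-responder 1 among the high responders, and the other 8 tumors were separate by group. Its means were 68.3 ± 19.6 and 46.0 ± 18.7 CPM, which gave a log2 fold change of 0.57 (SE 0.26; edgeR adjusted p = 0.604). The unadjusted p of Il1rn rose above 0.05 when any of 7 tumors was left out. With all tumors it was also above 0.05 by DESeq2 (unadjusted p = 0.0737).

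Il18bp (chr7:102014885-102018690) was at 21.1, 21.0, 19.97, 33.0 and 19.8 CPM in responders and at 20.7, 10.9, 20.02, 19.5 and 13.0 CPM in non-responders. Responder 11 stood above all other tumors, non-responders 2 and 7 stood below, and the remaining 7 were nearly level. Its log2 fold change was 0.46 (SE 0.19; edgeR adjusted p = 0.591) with all tumors and 0.29 without responder 11, when the unadjusted p was over 0.05.

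Il33 was at 10.3, 11.002, 14.2, 21.6 and 13.9 CPM in responders and at 27.1, 5.29, 7.29, 12.1 and 11.9 CPM in non-responders. Non-responder 1 had the highest level and non-responder 2 the lowest, so that the non-responders spanned the responders. The log2 fold change was 0.17 (SE 0.36; edgeR adjusted p = 0.928), and it ran from -0.04 without responder 11 to 0.64 without non-responder 1.

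Outside the interleukin-1 family, Il7, a survival factor of lymphocytes made by stromal cells, had the smallest p on the ligand side. Il7 (chr3:7569994-7613760) was at 10.99, 11.8, 10.01, 11.8 and 9.31 CPM in responders and at 8.84, 9.82, 9.66, 8.35 and 8.10 CPM in non-responders. Responders 5, 9, 10 and 11 were above every non-responder, and responder 12 lay below non-responders 2 and 3. The means were 10.8 ± 1.11 and 8.95 ± 0.769 CPM, which gave a log2 fold change of 0.27 (SE 0.09; edgeR adjusted p = 0.580). When single tumors were left out, the log2 fold change stayed between 0.23 and 0.32 and the unadjusted p under 0.05. Il4 and Il15, the other ligands of common gamma chain receptors past the filter, had log2 fold changes of -0.13 (from -0.19 without non-responder 2 to -0.09 without responder 10) and 0.16 (from 0.09 without non-responder 6 to 0.27 without responder 5).

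Il6, the gp130 ligand best known for STAT3 signaling, was at 0.971, 1.56, 1.08, 2.44 and 1.19 CPM in responders and at 0.880, 0.893, 2.06, 0.767 and 0.626 CPM in non-responders, on 16 to 75 estimated counts. Every responder was above 4 of the 5 non-responders, and non-responder 3 was above 4 of the 5 responders. The log2 fold change of 0.51 (SE 0.35; edgeR adjusted p = 0.718) became 0.88 without non-responder 3, with an unadjusted p under 0.05, and 0.21 without responder 11. Il11, which also signals through gp130, was at 1.79, 2.56, 2.27, 2.50 and 1.72 CPM in responders and at 1.76, 2.14, 1.96, 1.62 and 1.02 CPM in non-responders. Responders 9, 10 and 11 were above all non-responders, responders 5 and 12 were not, and the log2 fold change was 0.34 (SE 0.21; edgeR adjusted p = 0.686), and 0.20 without non-responder 7.

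Il34, which supports macrophages, was at 32.7, 28.6, 23.5, 25.7 and 29.5 CPM in responders and at 31.3, 33.3, 29.4, 27.9 and 26.8 CPM in non-responders. The groups overlapped over most of their range, with a log2 fold change of -0.09 (SE 0.09; edgeR adjusted p = 0.818) that ran from -0.15 without responder 5 to -0.03 without responder 10. The other ligands past the filter, Il18, Il36g, Il27, Il12b, Il23a, Il10 and Il16, had log2 fold changes from -0.47 for Il23a to 0.35 for Il27 and unadjusted p over 0.05. With a tumor left out, Il27 ran from 0.17 (without non-responder 2) to 0.53 (without non-responder 6) and Il36g from 0.12 (without responder 11) to 0.34 (without responder 5), and Il12b, Il10 and Il16 changed direction.

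Among receptors, the common gamma chain family held 4 of the 9 genes with an unadjusted p under 0.05. All 7 of its receptor genes passed the filter, all 7 had the higher mean in responders, the median log2 fold change was 0.34, and the 4 were Il2rb, Il2rg, Il7r and Il15ra. These 4 of 7 (57.1%) stand beside 8.21% of all features with such a p in either direction. Without responder 9 or 11, or non-responder 2 or 7, Il2rg and Il15ra had an unadjusted p over 0.05. Il2rb (chr15:78479256-78495271), the signaling chain shared by the interleukin-2 and interleukin-15 receptors, was at 15.5, 41.1, 46.8, 67.1 and 40.4 CPM in responders and at 33.8, 16.1, 20.1, 24.5 and 18.4 CPM in non-responders. Responders 9 to 12 lay above every non-responder, and responder 5 lay below all of them. The means were 42.2 ± 18.4 and 22.6 ± 6.99 CPM, which gave a log2 fold change of 0.91 (SE 0.30; edgeR adjusted p = 0.580). Leaving out a tumor moved it between 0.67 (without responder 11) and 1.13 (without responder 5), with an unadjusted p under 0.05 each time.

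Il2rg, the common gamma chain itself (chrX:101264378-101268255), was at 50.3, 72.5, 72.3, 84.4 and 59.0 CPM in responders and at 67.5, 43.6, 55.0, 54.6 and 44.5 CPM in non-responders. Responders 9, 10 and 11 lay above all non-responders, and non-responder 1 lay above responders 5 and 12. For Il2rg the log2 fold change was 0.35 (SE 0.14; edgeR adjusted p = 0.591), and its unadjusted p rose above 0.05 when any of 5 tumors was left out. A second protein-coding gene, Gm20489, is annotated over Il2rg on the same strand, so its level is uncertain.

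Il7r, the interleukin-7 binding chain (chr15:9505788-9530176), was at 12.3, 22.8, 21.1, 20.1 and 17.5 CPM in responders and at 17.2, 14.4, 14.9, 10.6 and 10.2 CPM in non-responders. As for Il2rb, responders 9 to 12 were above every non-responder, and responder 5 was among the non-responders. The means were 18.8 ± 4.06 and 13.5 ± 2.99 CPM, and the log2 fold change of 0.47 (SE 0.17; edgeR adjusted p = 0.580) stayed between 0.39 and 0.59 when each tumor was left out.

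Il15ra, which presents interleukin-15 to neighboring cells (chr2:11705290-11734317), was at 33.5, 41.5, 34.9, 48.7 and 38.1 CPM in responders and at 37.3, 22.4, 34.002, 36.0 and 27.9 CPM in non-responders. Responders 9, 11 and 12 were the 3 highest tumors and non-responders 2 and 7 the 2 lowest, and the rest were mixed. This gave a log2 fold change of 0.32 (SE 0.14; edgeR adjusted p = 0.591), down to 0.22 without non-responder 2, with an unadjusted p over 0.05 when any of 4 tumors was left out. Il21r and Il9r, the receptors of interleukin-21 and interleukin-9, had log2 fold changes of 0.34 and 0.17, with unadjusted p over 0.05. Il9r ran from -0.15 without responder 5 to 0.38 without non-responder 2, and Il21r from 0.24 without responder 11 to 0.51 without responder 5, when its unadjusted p was under 0.05.

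Receptors for interleukin-12 and interleukin-18, cytokines that raise interferon gamma in NK and T cells, came next. With all tumors, Il12rb2, the inducible signaling chain (chr6:67291318-67376188), had the largest fold change of any interleukin gene past the filter. Il2rb was ahead of it without non-responder 6 (log2 0.94 against 0.86) and without non-responder 7 (0.84 against 0.81). Il12rb2 was at 1.09, 2.63, 2.47, 3.71 and 2.49 CPM in responders and at 2.11, 1.36, 1.16, 1.04 and 0.860 CPM in non-responders. Responders 9 to 12 were above every non-responder, and responder 5 lay within the non-responders. The means were 2.48 ± 0.931 and 1.30 ± 0.486 CPM, which gave a log2 fold change of 0.93 (SE 0.31; edgeR adjusted p = 0.580) that ranged from 0.72 to 1.16 with a tumor left out, on 22 to 114 estimated counts.

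Il12rb1, the chain shared by the interleukin-12 and interleukin-23 receptors (chr8:70808449-70821424), was at 11.6, 14.0, 9.62, 15.8 and 12.8 CPM in responders and at 10.5, 8.25, 13.6, 9.70 and 7.90 CPM in non-responders. Here responder 10 fell among the non-responders and non-responder 3 among the responders. Its log2 fold change was 0.36 (SE 0.16; edgeR adjusted p = 0.591), with an unadjusted p over 0.05 when any of 6 tumors was left out. Il27ra, the specific chain of the interleukin-27 receptor, had an unadjusted p just over 0.05 and a log2 fold change of 0.42, which ran from 0.34 without responder 11 to 0.59 without non-responder 1. Its unadjusted p was under 0.05 without non-responder 1 and also without responder 5, when the log2 fold change was 0.56.

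Il18rap (chr1:40515362-40551705), at the end of a cluster on chromosome 1 with Il1r2, Il1r1, Il1rl2, Il1rl1 and Il18r1, had the smallest unadjusted p of the interleukin genes. It was at 240.4, 275, 227, 243 and 236 CPM in responders and at 209, 220.3, 228, 183 and 203 CPM in non-responders. Responders 5, 9, 11 and 12 were above every non-responder, and responder 10 was just below non-responder 3. The means were 244 ± 18.2 and 209 ± 17.5 CPM, a small difference in a steady gene (log2 fold change 0.23, SE 0.07; edgeR adjusted p = 0.580) that stayed between 0.19 and 0.26 with a tumor left out. Its partner Il18r1 had a log2 fold change of 0.45 on a wider spread (SE 0.26, unadjusted p over 0.05), which ran from 0.28 without responder 11 to 0.63 without responder 5. Its unadjusted p was under 0.05 without responder 5 and without non-responder 1 and over 0.05 without any of the other 8 tumors.

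Upstream sequences were read for STAT binding letters as a description, and whether a match bears on the level of a gene was not tested. RefSeq promoter windows (GRCm38.p6) were at hand for 64 of the 82 genes, and the gamma-activated sequence TTCNNNGAA was searched on both strands in the 300 bases from 250 before to 50 after the start site. It occurred in 9 of the 64 genes, beside 9.55% of all 27025 genes with a window, and in 2 of the 9 with an unadjusted p under 0.05 and a window, Il12rb2 and Il7r. The interferon response element core, GAAA and a further GAAA with any 2 bases between, occurred in 3 of the 64, beside 3.99% of all genes, and in 0 of those 9. A match is a description of the letters and not a binding site. The 250 bases before the start are shown 5′ to 3′ on the gene's strand, the minus strand for each, with the match in capitals. The match begins 123 bases before the start in Il12rb2 (window chr6:67376189-67376438) and 142 bases before it in Il7r (window chr15:9529877-9530126), and the window of Il2rg (chrX:101268256-101268505), the chain with which the interleukin-7 receptor pairs, is shown as one with neither set of letters.
Il12rb2: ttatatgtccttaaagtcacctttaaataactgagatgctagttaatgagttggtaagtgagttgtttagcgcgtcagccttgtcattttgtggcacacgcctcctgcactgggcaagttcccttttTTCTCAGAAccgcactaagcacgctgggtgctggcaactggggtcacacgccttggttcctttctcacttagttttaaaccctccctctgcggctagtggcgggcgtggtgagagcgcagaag
Il7r: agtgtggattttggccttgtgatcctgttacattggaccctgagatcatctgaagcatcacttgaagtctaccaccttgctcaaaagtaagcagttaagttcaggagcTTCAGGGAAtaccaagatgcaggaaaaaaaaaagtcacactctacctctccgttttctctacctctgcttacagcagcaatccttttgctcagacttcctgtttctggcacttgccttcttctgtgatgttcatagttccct
Il2rg: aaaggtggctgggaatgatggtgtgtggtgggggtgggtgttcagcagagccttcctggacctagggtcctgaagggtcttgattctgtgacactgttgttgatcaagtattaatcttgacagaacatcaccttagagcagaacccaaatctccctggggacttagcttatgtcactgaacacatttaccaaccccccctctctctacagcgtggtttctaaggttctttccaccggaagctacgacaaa

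The signaling receptor chains of interleukin-4 and interleukin-13, cytokines of type 2 immunity, were abundant although Il13 itself failed the filter and Il4 was at 1.43 to 2.02 CPM. Il13ra1 (chrX:36112110-36171259) was at 105, 139, 119.9, 136 and 121 CPM in responders and at 117, 91.6, 116, 104 and 94.3 CPM in non-responders. Responders 9 to 12 were again above all non-responders and responder 5 was among them. The means were 124 ± 13.7 and 104 ± 11.7 CPM, with a log2 fold change of 0.25 (SE 0.09; edgeR adjusted p = 0.580) that stayed between 0.21 and 0.31 with a tumor left out.

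Il13ra2, the decoy receptor of interleukin-13, was at 2.14, 3.06, 5.23, 7.15 and 3.95 CPM in responders and at 4.66, 2.07, 2.16, 1.53 and 2.39 CPM in non-responders. Responders 10 and 11 were the 2 highest tumors, followed by non-responder 1. In Il13ra2 the log2 fold change was 0.76 (SE 0.34; edgeR adjusted p = 0.598), and it ran from 0.49 without responder 11 to 1.09 without non-responder 1, with an unadjusted p over 0.05 when any of 7 tumors was left out. Il4ra was at 129, 159, 173, 191 and 156 CPM in responders and at 171, 120.4, 139, 145 and 141 CPM in non-responders. Non-responder 1 lay among the high responders and responder 5 below 4 of the 5 non-responders, and the log2 fold change was 0.18 (SE 0.10; edgeR adjusted p = 0.680). Without either of these tumors it was 0.25, with an unadjusted p under 0.05, and without responder 11 it was 0.11 and without non-responder 2 it was 0.12, with an unadjusted p over 0.05.

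The interleukin-6 receptor chains did not follow this direction as a group. Il6ra, the chain that binds interleukin-6, was at 126, 100.2, 108, 93.3 and 121 CPM in responders and at 105, 111, 129, 118 and 126 CPM in non-responders. Responders 9 and 11 were the 2 lowest tumors, and the log2 fold change was -0.10 (SE 0.08; edgeR adjusted p = 0.762), from -0.15 without responder 5 to -0.05 without responder 11. Il6st was at 214, 226, 236, 223 and 226 CPM in responders and at 255, 190.5, 208, 195 and 225 CPM in non-responders. The responders were close together and lay inside the range of the non-responders, with a log2 fold change of 0.07 (SE 0.07; edgeR adjusted p = 0.827) that was 0.14 without non-responder 1, with an unadjusted p under 0.05, and fell to 0.03 without non-responder 2 and 0.04 without non-responder 6. With all tumors, none of the 6 gp130 family genes past the filter had an unadjusted p under 0.05.

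Il1rl1 was at 125, 165, 132, 198 and 151 CPM in responders and at 185, 137, 137, 90.4 and 106 CPM in non-responders. Responder 11 and non-responder 1 were highest, and non-responders 6 and 7 lowest. The log2 fold change was 0.23 (SE 0.17; edgeR adjusted p = 0.739), and it was 0.13 without responder 11 and 0.39 without non-responder 1, the latter with an unadjusted p under 0.05. The signaling receptor of interleukin-1, Il1r1, and its accessory chain Il1rap differed little, with log2 fold changes of 0.03 and -0.05, and so did Il17ra, at 0.00. Il1r1 ran from -0.02 without non-responder 6 to 0.07 without responder 11. Il1rap ran from -0.07 without responder 12 to -0.003 without non-responder 1. The 4 interleukin-17 receptor genes past the filter ran from -0.08 to 0.09, none with an unadjusted p under 0.05. The lowest was Il17rd, a member of that family, at -0.08, which was -0.20 without responder 5, lower in responders with an unadjusted p under 0.05, and -0.01 without responder 11. Il17rb, at -0.06, ran from -0.25 without responder 5 to 0.17 without non-responder 1. The 4 genes past the filter in the interleukin-10 family ran from -0.04 for Il20rb to 0.15 for Il10, and single tumors turned the direction of both. Il20rb ran from -0.21 without responder 12 to 0.11 without non-responder 6, and Il10 from -0.09 without non-responder 2 to 0.49 without non-responder 6.

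**Figure D3:**
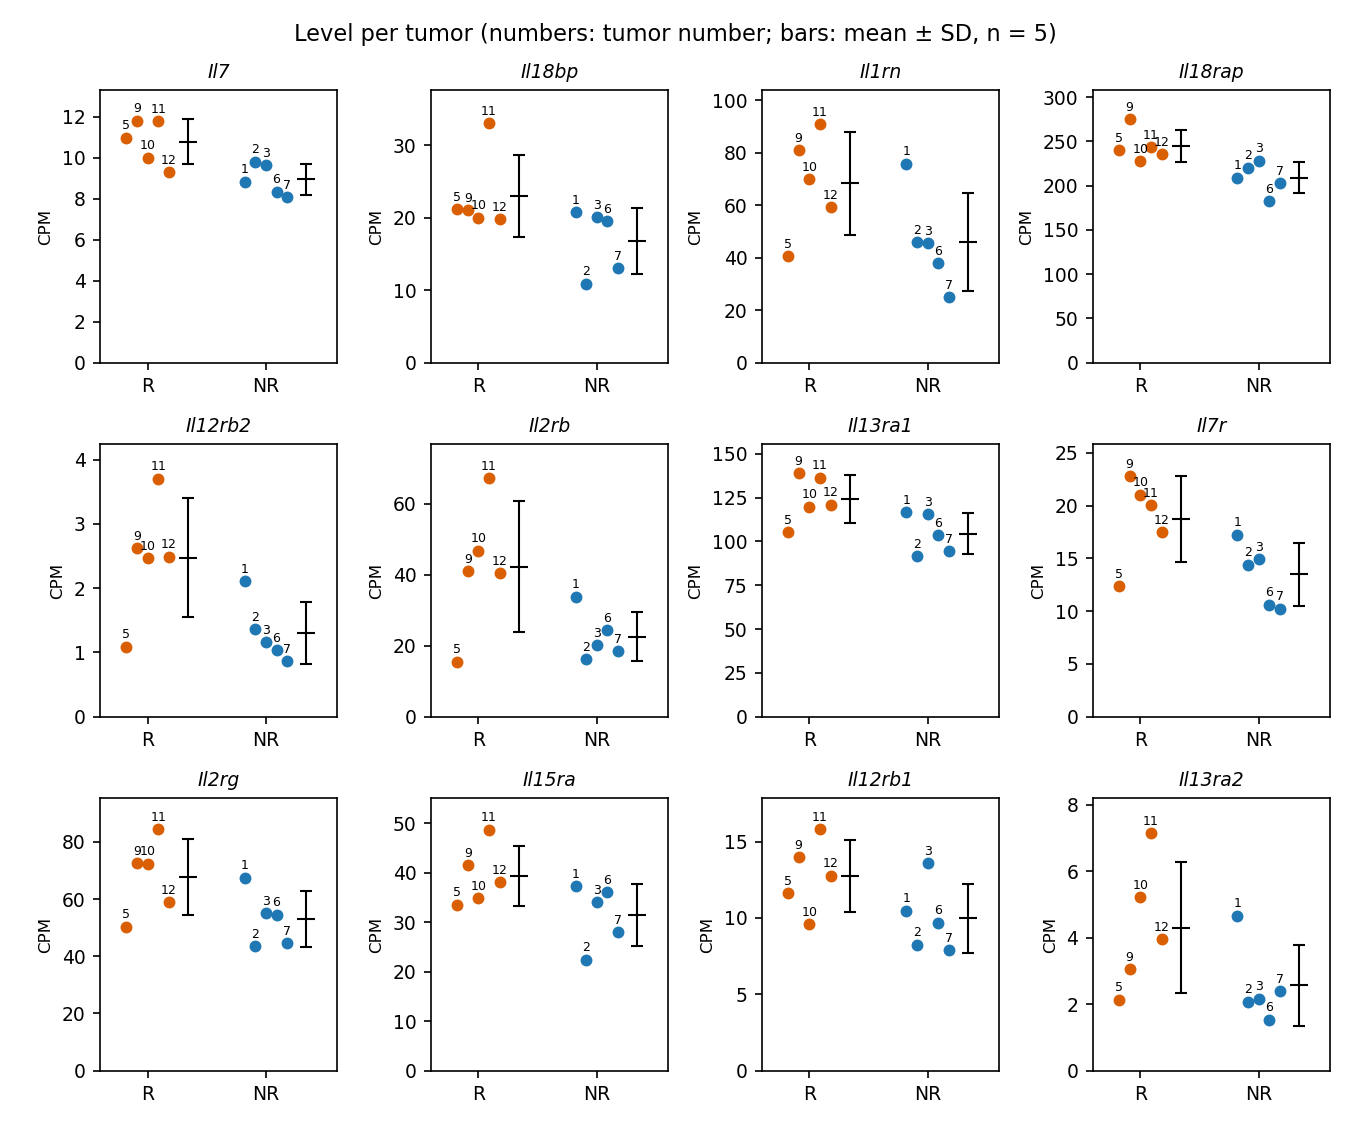
CPM in each tumor for the 12 interleukin genes with an unadjusted p under 0.05 (orange for responders, R, blue for non-responders, NR, with the tumor number above each point and the mean ± SD, n = 5, beside them). In Il2rb, Il12rb2, Il7r and Il13ra1 responders 9 to 12 lie above all non-responders and responder 5 lies below the other responders.

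Whether ligands and their natural brakes differed in proportion was tested with 4 ratios within a tumor, as log2 of estimated counts plus 0.5. The ratio of Il1rn to Il1b ran from 1.06 to 3.16 in counts, which do not account for gene length. Per kb of exon it ran from 0.364 to 1.09 and was below 1 in all tumors but responder 5 and non-responder 1. The exon length joins all annotated exons, 5535 bases for Il1rn and 1907 for Il1b, and can exceed the transcript measured. Which gene was higher per transcript is therefore not settled. The ratio of counts was 0.67 ± 0.56 in responders and 0.71 ± 0.59 in non-responders on the log2 scale (exact permutation p = 0.897, two-sided, adjusted p = 0.992). Within their groups, responder 5 and non-responder 1 had the highest ratios, at 1.56 and 1.66. The ratio of Il18bp to Il18 ran from 5.50 to 11.7 in counts and from 1.88 to 3.9999 per kb of exon, and was 3.19 ± 0.28 and 2.95 ± 0.35 on the log2 scale (exact permutation p = 0.278, adjusted p = 0.556).

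The decoy Il1r2 stayed far below the signaling receptor Il1r1, at log2 ratios of -5.25 ± 0.33 in responders and -5.25 ± 0.34 in non-responders (exact permutation p = 0.992, adjusted p = 0.992). Il13ra2 over Il13ra1 was -4.96 ± 0.59 in responders and -5.43 ± 0.53 in non-responders (exact permutation p = 0.222, adjusted p = 0.556). The adjustment covers the 4 ratios, and 5 tumors against 5 allow no p below 0.00794. Thus no ratio differed between the groups beyond the spread of the tumors, which does not show that the ratios were alike.

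Chains of the same receptor were compared across the 10 tumors in 8 pairs, on log2(CPM + 1). Il2rb and Il2rg, which together form the receptor for interleukin-2 and interleukin-15 on resting NK cells, went together most closely. Pearson's r was 0.933 (permutation p = 0.000220, adjusted p = 0.00176) and Spearman's rho 0.927 (permutation p = 0.000240, adjusted p = 0.00192). Without responders 11 and 5, the tumors farthest from the median of Il2rb, r was 0.916 (exact permutation p = 0.00248), and for deviations from the group means it was 0.899 (permutation p = 0.000180), so the relation held within groups. Responder 11, highest in both genes, was also the deepest library, and responder 9, the shallowest, was the third highest in Il2rb.

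Il4ra and Il13ra1, which form a receptor for both interleukin-4 and interleukin-13, had an r of 0.791 (permutation p = 0.00740, adjusted p = 0.0296) and a rho of 0.770 (permutation p = 0.0124, adjusted p = 0.0498). Without responder 11 and non-responder 2, r was 0.587 (exact permutation p = 0.125, adjusted p = 0.333) and did not pass the threshold. Whether leaving out other tumors would do the same was not tested. On deviations from the group means r was 0.740 (permutation p = 0.0143, adjusted p = 0.0571). The other 6 pairs did not pass the threshold. Il12rb1 with Il12rb2 had an r of 0.615 (permutation p = 0.0591) and a rho of 0.661 (permutation p = 0.0429, adjusted p = 0.0990), and Il10ra with Il10rb had an r of 0.578 (permutation p = 0.0826) and a rho of 0.430 (permutation p = 0.215). Il18r1 with Il18rap had an r of 0.256 (permutation p = 0.473) and a rho of 0.273 (permutation p = 0.445). Il1r1 with Il1rap had an r of 0.333 (permutation p = 0.353) and a rho of 0.648 (permutation p = 0.0495, adjusted p = 0.0990), and Il17ra with Il17rc had an r of 0.422 (permutation p = 0.225) and a rho of 0.467 (permutation p = 0.180). For Il6ra with Il6st, r was -0.360 (permutation p = 0.313) and rho was -0.406 (permutation p = 0.246).

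**Figure D4:**
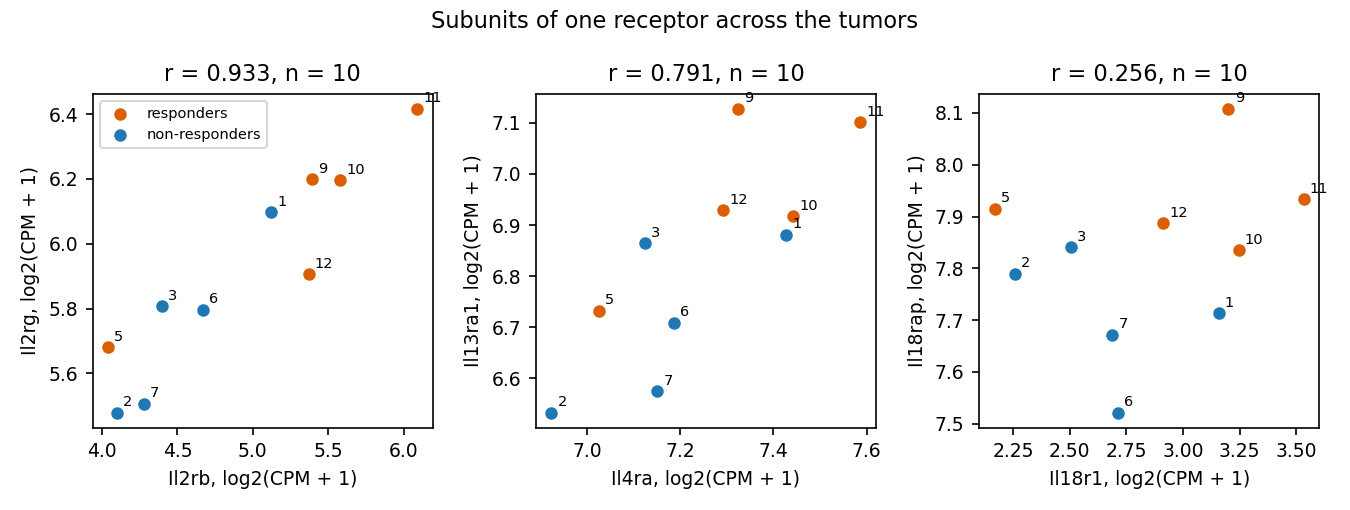
Levels of 2 chains of a receptor in each tumor, as log2(CPM + 1), for Il2rb with Il2rg, Il4ra with Il13ra1 and Il18r1 with Il18rap (orange for responders, blue for non-responders, numbered by tumor). The points follow a line in the left panel (r = 0.933) and scatter in the right panel (r = 0.256).

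Downstream of the receptors, a list of 56 partner and signaling genes was counted in the same fit. All 56 passed the filter, 12 (21.4%) had an unadjusted p under 0.05, all 12 with the higher mean in responders, and 0 passed the adjusted threshold (edgeR; 8.21% of all features had an unadjusted p under 0.05). The median log2 fold change was 0.12, and 44 of 56 had the higher mean in responders. The smallest p belonged to Jak3, the kinase that binds the common gamma chain, at 78.04 ± 7.19 CPM against 64.3 ± 6.83, which gave a log2 fold change of 0.28 (edgeR adjusted p = 0.580). Stat4, the transcription factor activated by interleukin-12, was at 4.36 ± 1.04 and 2.85 ± 0.728 CPM, which gave a log2 fold change of 0.61 (edgeR adjusted p = 0.580). Casp4, an inflammatory caspase, was at 42.1 ± 2.77 and 34.9 ± 5.91 CPM, which gave a log2 fold change of 0.27 (edgeR adjusted p = 0.580). Responder 5 was at 66.3 CPM in Jak3 and at 2.52 CPM in Stat4. In both it was below the other responders and within the range of the non-responders. In Casp4 it was the highest tumor, at 44.5 CPM.

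Others among the 12 were the feedback inhibitors Cish and Socs2, the interleukin-1 pathway kinases Irak2 and Irak3, the pore-forming protein gene Gsdmd, the beta chains Csf2rb and Csf2rb2 and the gp130 cytokine Osm. Of the genes with the lower mean in responders, the smallest p were those of Pias3 (log2 fold change -0.15), Socs6 (-0.09) and Socs7 (-0.08), all signaling inhibitors and all with an unadjusted p over 0.05. Stat3 and Stat6, which act below the interleukin-6 and interleukin-4 receptors, had log2 fold changes of 0.14 and -0.01, with unadjusted p over 0.05.

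Markers of the cells that carry these receptors were set beside them. Of 10 NK cell markers 8 passed the filter and 7 had an unadjusted p under 0.05, all higher in responders (8.21% of all features in either direction). Gzma was the most abundant at 36.1 CPM, then Prf1 at 29.3 CPM, and no other marker was above 9.67 CPM (Klrk1). The sum of the list therefore follows Gzma and Prf1 more than the other markers. The lectin-like receptor gene Klra8 was at 0 in every tumor. The 10 summed to 36.0, 119, 134, 218 and 128 CPM in responders and to 75.9, 30.4, 44.7, 73.2 and 36.8 CPM in non-responders. Responders 9 to 12 were above every non-responder and responder 5 was below 4 of them. In Il2rb, Il12rb2, Il7r and Il13ra1, too, responders 9 to 12 were above every non-responder and responder 5 was below at least 1 of them. The other interleukin genes with an unadjusted p under 0.05 did not share this pattern. In Il18rap, Il7 and Il18bp, responder 5 was above every non-responder. The means of the marker sum were 127 ± 64.5 and 52.2 ± 21.0 CPM (exact permutation p = 0.0397, two-sided, adjusted p = 0.345 over 12 marker lists). Without responder 5 the responder mean was 149.7 ± 45.7 CPM (exact permutation p = 0.0159, adjusted p = 0.190). Since responder 5 was set apart by its low sum of these same markers, this p is post hoc and no conclusion is drawn from it. The part of NK cell number in the levels of Il2rb, Il12rb2 and the other receptors was not tested.

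All 8 mast cell markers passed, led by Tpsb2 at 80.2 CPM, and 5 had an unadjusted p under 0.05, higher in responders (8.21% of all features in either direction). Their sum was 248, 237, 294, 404 and 340.2 CPM in responders and 328, 178, 238, 196 and 185 CPM in non-responders (exact permutation p = 0.0873, adjusted p = 0.345). Responder 11 was the highest tumor and non-responder 1 the highest of its group, as they were in Il1rl1, a gene that mast cells express, and the part of mast cells in Il1rl1 and Il13ra1 was not tested. All 10 T cell markers passed, led by Cd4, with 0 at an unadjusted p under 0.05, and summed to 19.8, 48.9, 50.4, 60.8 and 41.1 CPM in responders and to 49.2, 22.2, 30.6, 35.9 and 29.9 CPM in non-responders (exact permutation p = 0.214, adjusted p = 0.345). Responder 5 was the lowest tumor in this list. Without it, an alternative chosen after seeing the data, the responder mean was 50.3 ± 8.10 CPM against 33.6 ± 9.99 (exact permutation p = 0.0476, adjusted p = 0.218).

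Macrophage markers, led by C1qa, all passed with 0 at an unadjusted p under 0.05 and summed to 1850 ± 219.9 and 1667 ± 201 CPM (exact permutation p = 0.222, adjusted p = 0.345). Neutrophil markers were sparse, with 6 of 10 past the filter, Mmp9 the most abundant and Ly6g at no more than 2 counts in any tumor. All 6 had the higher mean in responders, 1 of them (Csf3r) with an unadjusted p under 0.05, and the 10 summed to 91.7 ± 35.6 and 65.9 ± 31.3 CPM (exact permutation p = 0.206). Of the mesenchymal markers 2, Col1a1 and Col3a1, had an unadjusted p under 0.05, lower in responders, and the list summed to 10802 ± 497 and 11447 ± 784 CPM (exact permutation p = 0.159). The lists for B cells, dendritic cells, keratinocytes, skeletal muscle, adipocytes and endothelium had exact permutation p from 0.103 to 0.714. An unadjusted p under 0.05 was found, lower in responders, for 2 endothelial genes (Cdh5 and Kdr), 2 skeletal muscle genes (Ckm and Myh4) and 1 adipocyte gene (Lep, at no more than 25 counts in any tumor), and, higher in responders, for 1 dendritic cell gene (Batf3) and 1 keratinocyte gene (Trp63). All 7 skeletal muscle markers, led by Acta1, had the lower mean in responders and summed to 123 ± 52.3 CPM against 164 ± 46.4, and keratinocyte markers to 20.3 ± 1.79 and 19.2 ± 0.794 CPM, with Krt1 at 0 in every tumor.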

How the data were processed

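Poly(A) RNA of 10 WEHI 164 tumors was sequenced, from 5 responder and 5 non-responder mice. The authors estimated transcript abundances with Kallisto on GRCm38, as the submitters' processing notes name them, summed them to genes with tximport, and deposited estimated counts per gene, not normalized. Of 36009 entries, 9580 have no name and were kept, and 44 names occur more than once and were summed. Counts were rounded. Features above 0.366 CPM in at least 3 tumors were tested with edgeR 4.0.16 in R 4.3.3 (quasi-likelihood test, trimmed mean of M values, Benjamini-Hochberg adjustment over all 15767 features). Standard errors were obtained by dividing a log2 fold change by the root of its F statistic. The common biological coefficient of variation was 10.4%. DESeq2 1.42.0, limma 3.58.1, other normalizations and filters, and leaving out each tumor were alternatives. Single values used exact permutation tests over 252 assignments, and correlations 100000 resamples, in Python 3.11.15.

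The interleukin genes, roles, 56 pathway genes and 12 marker lists were chosen with earlier results of these data known. Named with values are the 6 ligands and 8 receptors of smallest p, the 5 of each of highest CPM per kb, Il6, Il2, Il6ra, Il6st, Il2rb and Il2rg, the paired genes with their tests, and 3 pathway genes a direction. Positions and exon lengths are from GENCODE vM21 on GRCm38, and an exon length joins all annotated exons of a gene. Whether counting used strand is not given in the sources used here, and reads shared with opposite-strand genes were not measured. Such genes are annotated over Il7, Il18bp, Il18, Il1a, Il1b, Il34, Il1r2, Il1rap, Il4ra, Il6ra, Il10ra and Il12rb2, among others. Both genes of the ratio of Il18bp to Il18 are thus uncertain in this way. Protein sequences were not analysed here, and 1 pathway gene is not reported here.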

Additional observations from a re-analysis of the deposited data

Results flagged for a closer look

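Among 25 measures in 2 groups of 5 tumors, 50 sets in all, 2 sets held a tumor far from its group by Dixon's ratio (critical value 0.71), where chance gives about 1 in 20, or 2.5 of 50. Il18bp in responder 11 was 5.09 on the log2(CPM + 1) scale, and the other 4 responders were at 4.38 to 4.47. Il6 in non-responder 3 was 1.61 on that scale, and the other 4 non-responders were at 0.70 to 0.92.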

How the results depend on the processing

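Of the fold changes of 21 named genes, 334 alternatives kept the direction and 2 reversed, and none reached an adjusted p of 0.05, which none did with all tumors either. The unadjusted p crossed 0.05 in 37 of the 336 alternatives, 35 of them with a tumor left out, in 12 of the 21 genes: 26 of these were losses, in Il1rn (8), Il12rb1 (6), Il2rg (5), Il15ra (4) and Il18bp (3), and 11 were gains. The log2 fold change of Il33 ran from -0.0399 (without responder 11, and -0.0364 without non-responder 2) to 0.64 when a tumor was left out. Of the counts and relations, 108 alternatives stayed within limits. Features at an adjusted p under 0.05 numbered 1 with DESeq2 and 0 to 9 with a tumor left out, and those at an unadjusted p under 0.05 numbered 839 to 2140. Ligands at an unadjusted p under 0.05 numbered 6 without a low-count filter, which added Il1b, higher, and Il17c and Il17f, lower, both below 11 counts a tumor, and 1 to 5 with a tumor left out. Receptors numbered 5 to 14 with a tumor left out. With a tumor left out, the group difference in log2 ratio of Il1rn to Il1b ran from -0.26 to 0.20 (0.07 without responder 9, 0.09 without responder 10, 0.20 without non-responder 1), and that of Il1r2 to Il1r1 from -0.130 to 0.0801 (-0.12 without responder 11, -0.03 without responder 12, -0.13 without non-responder 2, -0.03 without non-responder 3). The correlation of Il18r1 with Il18rap was -0.0791 for deviations from the group means, and that of Il4ra with Il13ra1 was 0.587 without 2 tumors. Without responder 5, an alternative chosen after seeing the data, the T cell marker sum was higher in responders by 16.7 CPM (exact permutation p = 0.0476) and the other 11 marker sums kept their direction and their side of an exact p of 0.05. The cause of these changes was not tested. No paired analysis was possible because tumor numbers are not shared between the groups. Counts were low for genes such as Il6, Il12rb2, Il1a and Il23a and for those below the filter, and the part of depth in their values was not tested. With 5 tumors a group no interleukin gene passed the adjusted threshold.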
